A study of Mus musculus with 18 samples.

Results

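Onecut1, Onecut2 and Pdx1 are homeodomain transcription factors of the duodenum, pancreas and liver, and their RNA was followed here in fibroblasts, hepatocyte-like cells and 4 kinds of intestinal organoid. The members were all array probes annotated with one of these gene names: 2 for Onecut1, 3 for Onecut2 and 1 for Pdx1, which is 6 of the 41109 gene probes used and 3 of the 28067 gene names on them. The study converted mouse fibroblasts into intestinal progenitors and set organoids grown from the converted cells beside organoids grown from intestine. Total RNA of C57BL/6 mice was labelled with Cy3 and hybridised to 18 whole-genome arrays, 3 for each of 6 groups. Induced intestinal stem cells gave the budding organoids called iISC, and adult crypts gave the budding organoids called crypt. Organoids that were both spherical and budding were grown from induced fetal progenitors of the intestine (iFIPC) and from the fetal intestine itself (FI). The remaining groups were hepatocyte-like cells made from fibroblasts (iHep) and mouse embryonic fibroblasts (MEF). The labels give no factor, promoter or clone for the induced cells, no region of intestine for the crypt or FI cultures, and the iHep titles carry 3 different unexplained codes, so that the iHep arrays may be 3 different conversions. They do not say that replicates came from separate animals or cultures, and p-values then measure only the spread between these samples.

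Onecut factors bind DNA through a cut domain beside a homeodomain. Onecut1, also called Hnf6, acts in the development of liver and bile duct and in the pancreas, where it lies upstream of Pdx1. Pdx1 is required for the formation of the pancreas and for the normal cell types of the proximal duodenum, and it keeps its expression in the adult duodenal epithelium and in beta cells. Along the adult small intestine, Onecut2 and Pdx1 are known as genes of the proximal part, as is the zinc finger factor Gata4, whereas the ileum takes up bile acids through Slc10a2.

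Because both Onecut1 probes carry 1 gene name and gave different values, their sequences are shown first, with positions on mm9 as the organoid files give them. The probe A_51_P368894 lies at chr9:74737272-74737331 and is assigned to a RefSeq transcript of Onecut1, and A_51_P428977 lies at chr9:74700239-74700298, 37.0 kb away between starts, and is assigned to a cDNA clone without a RefSeq entry. Capitals mark the bases at which the first probe matches the Onecut2 probe A_52_P213916 when the end of that probe is laid over its first 22 bases.
Onecut1 A_51_P368894: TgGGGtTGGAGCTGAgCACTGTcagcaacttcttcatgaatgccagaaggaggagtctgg
Onecut1 A_51_P428977: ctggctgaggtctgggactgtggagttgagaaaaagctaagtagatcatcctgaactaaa
In this stretch, the best-scoring placement without gaps, 19 of 22 bases matched and 3 did not, and the longest shared run was 9 bases. The best placements on the other Onecut2 probes matched 15 of 32 bases (A_51_P345274) and 6 of 13 (A_52_P1164839). Whether such matches affect the signal was not tested. The Pdx1 probe A_52_P31510 lies at chr5:148086570-148086629. The files do not say which exon, coding part or untranslated region a probe falls in.

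The 250 bases before the starts of Onecut1 and Pdx1 are shown so that the promoters can be compared (RefSeq, GRCm38.p6, plus strand). The Onecut1 region is chr9:74861671-74861920 and the Pdx1 region chr5:147269847-147270096. Capitals mark the E-box CACGTG, a motif that was picked after the sequences had been seen.
Onecut1 promoter: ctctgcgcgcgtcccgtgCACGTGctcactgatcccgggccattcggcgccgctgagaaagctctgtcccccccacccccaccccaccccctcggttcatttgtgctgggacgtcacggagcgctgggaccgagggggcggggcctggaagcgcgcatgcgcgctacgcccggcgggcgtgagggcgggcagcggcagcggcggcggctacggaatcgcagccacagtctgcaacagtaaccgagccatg
Pdx1 promoter: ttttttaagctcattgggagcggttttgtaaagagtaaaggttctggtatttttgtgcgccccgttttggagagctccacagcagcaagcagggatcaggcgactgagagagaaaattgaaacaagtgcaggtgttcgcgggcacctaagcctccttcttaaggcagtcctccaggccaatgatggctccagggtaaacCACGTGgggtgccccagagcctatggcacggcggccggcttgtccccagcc
Each region held CACGTG once, and 6.02% of 32851 RefSeq promoters of this length held it. On both strands, neither region held the Onecut core ATTGAT (6.72% of promoters), the GATA motif AGATAA (9.99%) or the Cdx motif TTTAT (37.3%). A match of letters is a description of these windows and not a binding site.

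Levels are log2 of the processed signal, set relative to the 75th percentile over that array's gene probes, so that 0 is the brightness at that percentile and 1 unit is a factor of 2. Tests were run on probes whose signal stood well above background throughout at least 1 of the groups compared. A probe is named as called when its limma adjusted p (Benjamini-Hochberg) was below 0.05 and its log2 difference reached 1 in size. MEF arrays 2 and 3, whose differences had a spread of 0.073 log2 against 0.197 to 0.536 in the other 17 pairs within groups, were averaged, which leaves 17 samples with an n of 2 for MEFs. Between 56.1 and 68.7% of probes were well above background. Organoid arrays were read with another scanner and software version than those of MEFs and iHep cells, so that in any comparison of organoids with MEFs or iHep cells the array set and the cell type cannot be told apart. All 6 epithelial markers checked (Cdh1, Epcam, Vil1, Cdx1, Cdx2 and Lgr5) were well above background on every organoid array. On each MEF array only 1 of them was, and Cdh1, Epcam, Vil1, Cdx1 and Cdx2 were well above background on none. Within a slide, or without 1 MEF sample, a group can hold 1 sample, which is then assumed to vary like the other groups. In bulk RNA, fewer cells expressing a gene and less RNA per cell cannot be told apart.

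Onecut2 had its highest levels in organoids grown from intestine. By the probe A_52_P213916 its levels were -3.90, -0.52 and -1.83 in iISC organoids 1 to 3, against 3.43, 2.94 and 3.16 in crypt organoids. The crypt organoids lay close together and above every iISC sample. The levels were -0.58, 1.19 and -1.24 in iFIPC organoids, against 0.60, 3.23 and 3.07 in FI organoids. FI 1 lay below iFIPC 2, so these groups overlapped, whereas FI 2 and FI 3 lay within the crypt range. In iHep cells the levels were -2.53, -3.50 and 1.95, and on the MEF arrays they were -4.61, -3.76 and -3.63. iHep 3 was higher than all 3 iFIPC samples, and iISC 1 lay as low as the MEFs. The probe was well above background on all 18 arrays.

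The other Onecut2 probes gave the same order of groups. All 3 lie on chromosome 18, A_51_P345274 and A_52_P213916 with starts 20 bases apart and 40 bases in common, and A_52_P1164839 6.63 kb further on. The overlapping probe A_51_P345274 ranged from -4.25 to -0.90 in iISC organoids, from 2.61 to 3.05 in crypt organoids, from -1.58 to 0.83 in iFIPC organoids and from 0.17 to 2.85 in FI organoids. It had -2.84, -4.18 and 1.64 in iHep cells, against -4.10, -4.08 and -4.18 on the MEF arrays. The separate probe A_52_P1164839 had -6.39, -3.24 and -4.77 in iISC organoids, against 0.66, 0.25 and 0.48 in crypt organoids. iHep 3 (-1.05) was the only array of the iHep and MEF groups on which this probe was well above background. Across the 17 samples the 3 probes correlated with Pearson's r of 0.993 to 0.997, so the differences among samples did not rest on 1 probe.

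**Figure D1:**
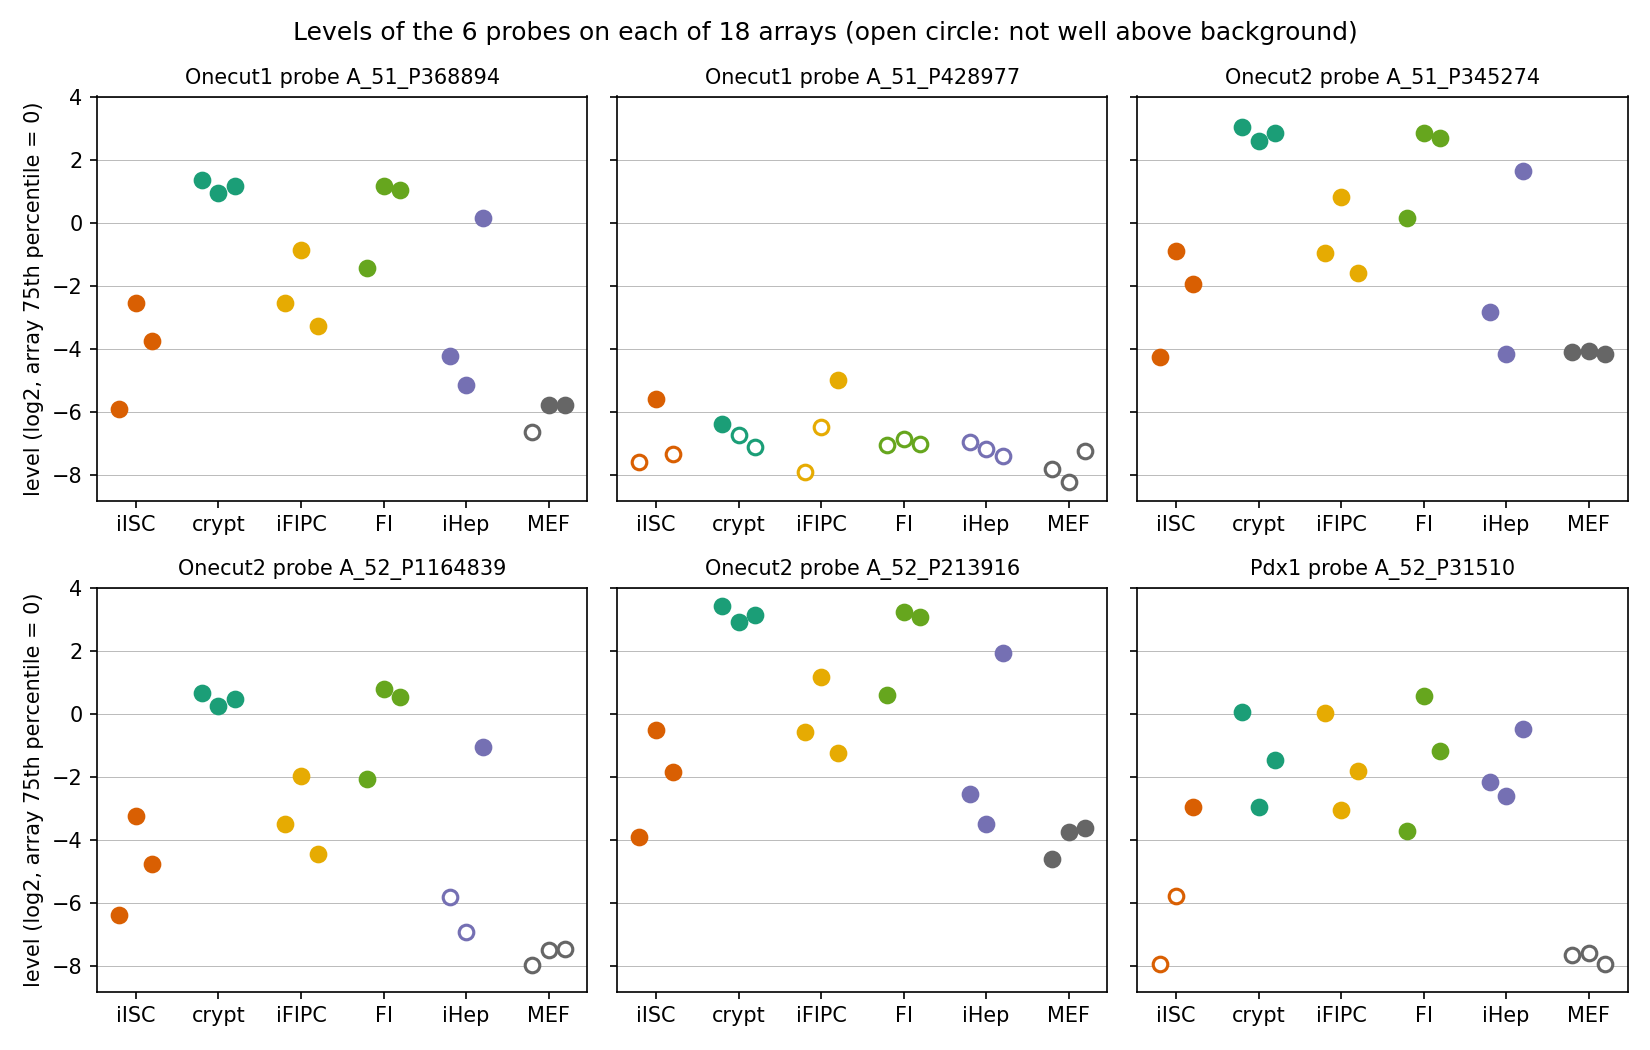
Level of each of the 6 probes (y axis, log2 relative to the array's 75th percentile) on each of the 18 arrays, by group along the x axis; every point is 1 array and open circles are not well above background. The 3 Onecut2 probes and the Onecut1 probe A_51_P368894 show the same pattern with the highest group mean in crypt organoids, the Onecut1 probe A_51_P428977 stays near background, and Pdx1 is low in MEFs and in 2 of 3 iISC samples.

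The probes of Onecut1 disagreed. A_51_P368894 had -5.91, -2.54 and -3.75 in iISC organoids, against 1.37, 0.94 and 1.16 in crypt organoids. It had -2.53, -0.85 and -3.27 in iFIPC organoids, against -1.44, 1.17 and 1.04 in FI organoids. It had -4.22, -5.16 and 0.17 in iHep cells, against -6.65, -5.77 and -5.80 on the MEF arrays, of which 2 were well above background. This is the Onecut2 pattern sample by sample. The level of the Onecut1 probe minus that of the Onecut2 probe A_52_P213916 was -1.96 ± 0.13 (SD, n = 17) and stayed between -2.09 and -1.66, although each probe had an SD of more than 2.8 log2 units over the samples (2.81 for Onecut1 and 2.85 for Onecut2). Pearson's r between them was 0.999 (Spearman's rho 0.998, n = 17 arrays or array means that share the hybridisations), it stayed at 0.999 without the 2 samples farthest from the median, and the deviations from the group means had an r of 1.00. This exceeds the r of 0.997 between the Onecut2 probes that have 40 bases in common.

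A_51_P428977 showed no such pattern. Its levels lay between -8.24 and -5.00 on all 18 arrays, and it was well above background on 3 of them only, iISC 2 (-5.59), crypt 1 (-6.39) and iFIPC 3 (-5.00). It passed the filter in no comparison and was not tested. Its r with A_51_P368894 was 0.286 over the 17 samples. Which of the Onecut1 and Onecut2 transcripts A_51_P368894 reads was not tested, and its values cannot be told apart from those of Onecut2. They are therefore given below as those of a probe, not as a level of Onecut1.

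**Figure D2:**
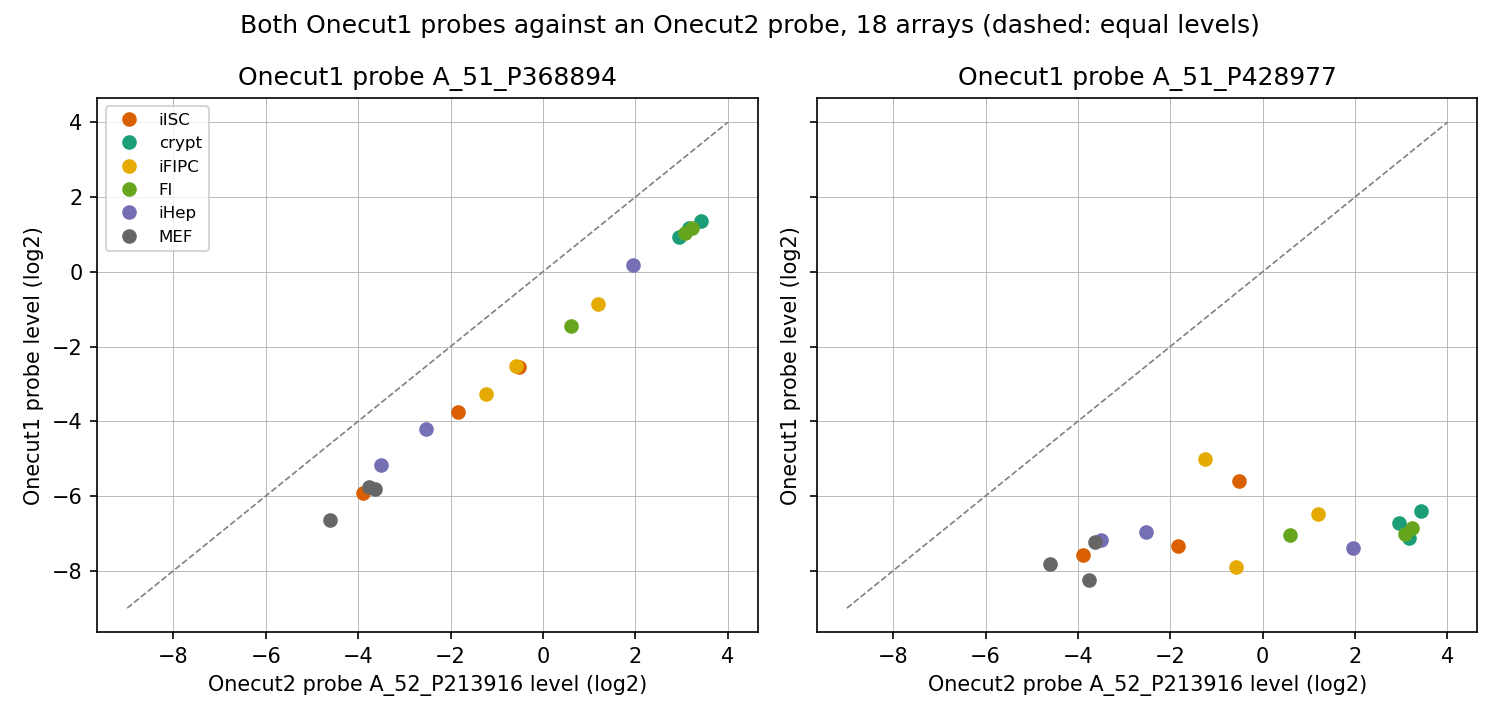
Levels of the Onecut1 probes (y axes, log2) against the Onecut2 probe A_52_P213916 (x axis, log2) on the 18 arrays, with the dashed line at equal levels. On the left A_51_P368894 runs parallel to the line, at a difference of -1.96 on average, and on the right A_51_P428977 stays between -8.24 and -5.00 whatever the level of Onecut2.

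Onecut3, another gene of the family and not a member, also had 2 probes that differed. A_51_P331638 was dim, from -7.09 to -3.69, and correlated with Onecut2 at r = 0.900 (rho 0.877, n = 17), with -3.71, -4.06 and -3.79 in crypt organoids and -4.30 in iHep 3. The best placement of this probe without gaps on the Onecut2 probe A_51_P345274 matched 13 of 14 bases, with a shared run of 11. On A_52_P213916 it matched 9 of 15 bases. Whether such matches affect the signal was not tested. The other Onecut3 probe, A_52_P474152, had an r of 0.158 with Onecut2 and was well above background on 5 of 18 arrays. Its highest level was -4.74, in FI 2.

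Pdx1, the pancreatic and duodenal homeobox gene, was measured by 1 probe and varied widely within every group except the MEFs. Its levels were -7.95, -5.79 and -2.96 in iISC organoids, where only iISC 3 was well above background, against 0.08, -2.94 and -1.47 in crypt organoids. They were 0.05, -3.03 and -1.81 in iFIPC organoids, against -3.70, 0.58 and -1.18 in FI organoids. The iFIPC, crypt and FI ranges covered each other almost entirely. In iHep cells the levels were -2.16, -2.60 and -0.47, against -7.64, -7.58 and -7.94 on the MEF arrays, none of which was well above background. All 3 iHep samples thus lay within the range of organoids grown from intestine. FI 1 had the lowest and FI 2 the highest FI level for both Pdx1 and Onecut2, whereas among iFIPC organoids the sample with the highest Onecut2 (iFIPC 2) had the lowest Pdx1. Pearson's r between the Onecut2 probe A_52_P213916 and Pdx1 was 0.714 over the 17 samples (rho 0.708) and 0.619 without the 2 samples farthest from the Onecut2 median. Within groups, the r of deviations from the group means was 0.478.

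In order of group means, Onecut2 (A_52_P213916) was 3.18 ± 0.25 in crypt organoids, 2.30 ± 1.48 in FI organoids, -0.21 ± 1.26 in iFIPC organoids, -1.36 ± 2.91 in iHep cells, -2.09 ± 1.70 in iISC organoids (SD, n = 3 each) and -4.15 ± 0.65 in MEFs (SD, n = 2). The samples of every neighbouring pair in this order overlapped. For Pdx1 the means were -1.44 ± 2.15 in FI organoids, -1.45 ± 1.51 in crypt organoids, -1.60 ± 1.56 in iFIPC organoids, -1.74 ± 1.13 in iHep cells, -5.57 ± 2.50 in iISC organoids (SD, n = 3 each) and -7.70 ± 0.08 in MEFs (SD, n = 2). The first 4 of these differed by less than the spread within each, and the only neighbours without overlap were iISC organoids and iHep cells (65.8% of all probes did not overlap between these groups).

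The spread within groups was itself large for these genes. Among 22496 probes well above background on all iISC arrays, the median SD within the group was 0.20, and the SD of Onecut2 (A_52_P213916) was 1.70, larger than that of 99.5% of them. In FI organoids it was 1.48 (larger than 99.2% of probes) and in iHep cells 2.91 (99.9%). In crypt organoids it was 0.25, larger than only 60.1% of probes, so among the organoid groups only the crypt samples lay as close together in Onecut2 as in a usual gene. Pdx1 varied in the crypt organoids too, with an SD of 1.51 that was larger than that of 99.5% of probes.

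Crypt organoids set a native intestinal epithelium beside fibroblasts. Relative to MEFs, Onecut2 (A_52_P213916) was 161-fold higher in crypt organoids (log2 difference 7.33 ± 1.41, standard error; limma adjusted p = 0.00044). In FI organoids it was 87.9-fold higher than in MEFs (6.46 ± 1.41; 0.00127), and in iFIPC organoids 15.4-fold higher (3.94 ± 1.41; 0.0267). Pdx1 was at least 27.4-fold higher in crypt organoids than in MEFs (adjusted p = 0.00204), at least 27.6-fold in FI organoids (0.00218) and at least 24.7-fold in iFIPC organoids (0.00286), each bound taken against the dimmest signal that counts as well above background because no MEF array reached it. In each of these comparisons all 5 probes tested were called higher. Of all probes tested, 22.6% were called higher in crypt, 21.8% in FI and 18.2% in iFIPC organoids. The shares called in either direction were 47.6%, 45% and 41.3%. Pdx1 and the Onecut2 probe A_52_P1164839 were well above background on no MEF array and passed the filter only through the organoids. The 4 Onecut probes move as 1 measure, so the count of 5 is not a count of separate findings. In iISC organoids, where 46.3% of all probes tested were called against MEFs, none of the 4 member probes tested was. The Onecut2 difference was 2.07 ± 1.41 there (adjusted p = 0.209), and Pdx1 could not be tested. These comparisons share the MEF samples.

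Under a normexp background correction with an offset of 50 the Pdx1 differences were smaller and fell below the bounds given for Pdx1. The bounds thus hold for the processed signal only, and the adjusted p beside each belongs to the fitted difference. The log2 difference from MEFs was 2.47 in crypt, 2.55 in FI and 2.34 in iFIPC organoids and 2.22 in iHep cells, and only the first 2 were called. The iFIPC calls of Onecut2 and of the Onecut1 probe were lost as well, with 2.80 (adjusted p = 0.0544) for Onecut2 A_52_P213916. Only 1 of the 5 probes was called without iFIPC 2, where the Onecut2 difference was 3.24. The same held with 1 MEF sample left, where the difference was 3.48 without MEF 1 and 4.40 without the averaged MEF 2 and 3.

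iHep cells were made from fibroblasts and are named as hepatocyte-like, but they were not free of the epithelial markers. Of these 6 markers, 5, 5 and 4 were well above background on iHep arrays 1 to 3. Their summed signal, on the log2 scale of the levels, was 5.65, 5.98 and 7.03, against 7.46 to 8.03 in organoids. By the processed signal, Pdx1 was at least 22.3-fold higher in iHep cells than in MEFs (adjusted p = 0.00542), where no MEF array was well above background. Within the slide that holds the 3 iHep arrays and MEF 1, where MEFs are 1 array, the fitted log2 difference was 5.90, which depends on how background is treated (2.22 under normexp over all slides). Pdx1 was the only 1 of 4 member probes tested that was called, where 27.1% of all probes were. It passed the filter through the iHep arrays alone, and the Onecut2 probe A_52_P1164839 did not pass. Onecut2 (A_52_P213916) differed by 2.80 ± 1.40 (0.124), and within that slide by 3.26. This mean rests on iHep 3: without it the difference was 1.14 (0.425), and without iHep 2 it was 3.87 and called (0.0465). Pdx1 was called lower in iISC organoids than in iHep cells (fitted log2 difference -3.83 ± 1.31, adjusted p = 0.021), 1 of 5 probes tested, where 38.9% of all probes were called. Only 1 of 3 iISC arrays was well above background, so the size of this difference depends on background signals, and under normexp it was -1.92 and not called (0.0756). The call was also lost without iISC 1 (-2.63), without iISC 2 (-3.71) and without iHep 3 (-3.19). Against iHep cells no member probe was called in iFIPC organoids (33.2% of all probes called), with 1.15 ± 1.26 for Onecut2 and 0.15 ± 1.31 for Pdx1. Without iHep 3, all 4 Onecut probes tested were called higher in iFIPC organoids, by 2.80 for Onecut2 A_52_P213916.

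Induced and native budding organoids differed in Onecut2. It was 38.4-fold lower in iISC than in crypt organoids by A_52_P213916 (log2 difference -5.26 ± 0.95, adjusted p = 0.0173), with -2.09 ± 1.70 in iISC organoids and 3.18 ± 0.25 in crypt organoids. The other Onecut2 probes gave -5.21 ± 0.95 (0.0185) and -5.26 ± 0.94 (0.0171), and the Onecut1 probe A_51_P368894 gave -5.22 ± 0.94 (0.0173). Thus 4 of 5 probes tested were called lower, where 1.17% of all probes were called lower and 2.59% in either direction; these 4 probes move as 1 measure and do not count as separate findings. Pdx1 differed by -4.12 ± 1.44, and was not called (0.14), although all iISC samples lay below all crypt samples. These groups did not overlap, in either direction, for 24.2% of all probes. The Onecut2 difference kept its sign without any sample, from -6.04 to -4.35, but without crypt 2 (adjusted p = 0.0636) or crypt 3 (0.0684) it was no longer called. With slide as a term, where iFIPC arrays on both slides connect iISC organoids with crypt organoids, it was -7.24 ± 1.75 and not called (0.171), and 40 in place of 636 probes were called over the whole array.

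In the fetal type the Onecut probes fell on either side of the threshold. Onecut2 (A_52_P213916) differed by -2.51 ± 0.95 between iFIPC and FI organoids (adjusted p = 0.0828), and the Onecut1 probe by -2.47 ± 0.95 (0.0852). Only the Onecut2 probe A_52_P1164839 was called, at -3.05 ± 0.95 (0.0444), so 1 of 5 probes tested was, where 9.29% of all probes were called. Without FI 1 the Onecut2 difference by A_52_P213916 was -3.37 (0.0431) and 4 of 5 probes were called, whereas no probe was called without FI 2, FI 3, iFIPC 1 or iFIPC 3. Pdx1 differed by -0.16 ± 1.45 (0.948). With slide as a term none was called, and the differences were -2.84 for Onecut2 A_52_P213916 and 2.85 ± 2.70 for Pdx1, so the sign of the Pdx1 difference turned.

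The difference of induced from native organoids was set between the 2 types by an interaction. For Onecut2 (A_52_P213916) it was -2.75 ± 1.35 (adjusted p = 0.227) and for Pdx1 -3.96 ± 2.05 (0.251), and none of 5 probes was called, where 4.57% of all probes were. The larger deficit of Onecut2 in iISC organoids is therefore not shown to differ from that in iFIPC organoids.

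Crypt and FI organoids, the adult and the fetal native type, did not differ in a called way in any of 5 probes (7.32% of all probes called). Onecut2 differed by 0.87 ± 0.95 (adjusted p = 0.579), by 1.13 within the slide that holds crypt 1 and the FI arrays (0.793), and by 0.02 without FI 1. Pdx1 differed by -0.01 ± 1.44 (0.998) and by 1.52 within that slide (0.827). Between iISC and iFIPC organoids none of 5 probes was called either (6.62% of all probes called). Onecut2 differed by -1.87 ± 0.95 (0.231) and by -3.28 within the slide that holds the iISC arrays and iFIPC 2 (0.305), and by -0.97 without iISC 1. Pdx1 differed by -3.97 ± 1.44 (0.105) and by -2.53 within that slide (0.627). With standard errors of 0.95 for Onecut2 and 1.44 for Pdx1, these values do not show that the groups were alike.

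**Figure D3:**
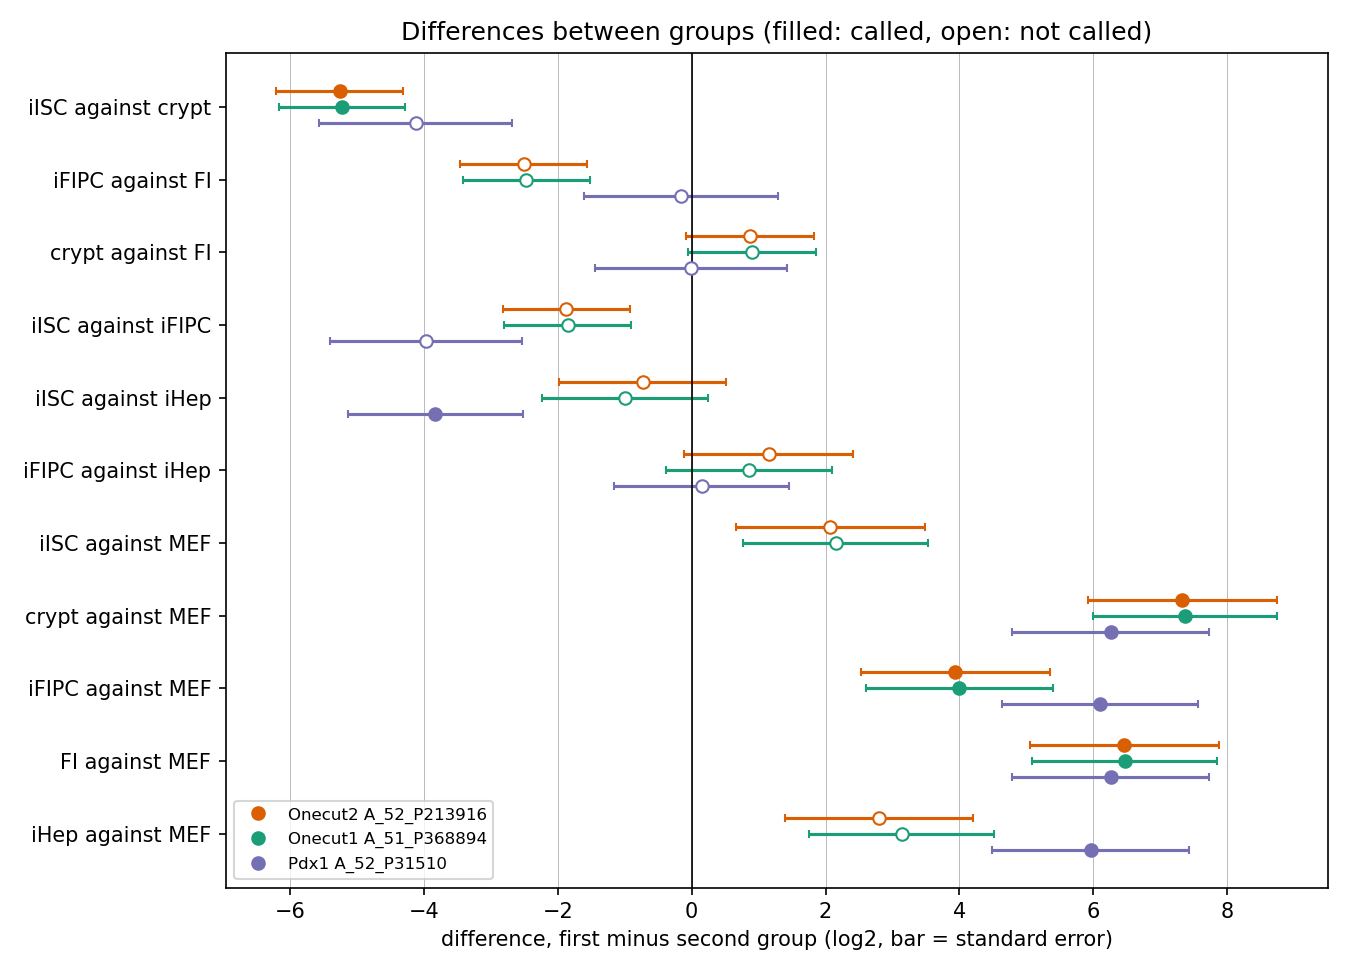
Log2 difference (x axis, first minus second group, bars are standard errors of the limma fit) of Onecut2 A_52_P213916, Onecut1 A_51_P368894 and Pdx1 in 11 comparisons (rows), filled where called. Onecut2 and the Onecut1 probe lie close together in every row, at -5.26 and -5.22 for iISC against crypt; Pdx1 is missing for iISC against MEF, where it was not tested, and its other differences from MEFs are set against signals that were not well above background.

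Slc10a2 was higher in the organoid samples with less Onecut2. This gene, the ileal bile acid transporter, had 2.08, 1.37 and 0.99 in iISC organoids, against -5.68, -4.86 and -4.40 in crypt organoids (6.46 ± 1.22, adjusted p = 0.0212). It had -0.65, 0.41 and 1.17 in iFIPC organoids, against -0.75, -6.41 and -5.76 in FI organoids (4.62 ± 1.22, 0.0262). FI 1, the FI sample with the least Onecut2, thus had Slc10a2 like an iFIPC sample. The crypt samples with FI 2 and FI 3 stood apart from the rest in both genes, so no correlation over the organoid samples is given. The gut hormone gene Pyy, known to increase towards the ileum and colon, had 4.62, 3.52 and 2.13 in iISC organoids, against -1.42, -1.97 and -2.11 in crypt organoids. It had 2.96, 2.68 and 2.33 in iFIPC organoids, against 4.73, -0.79 and 0.62 in FI organoids. FI 1 again lay apart from FI 2 and FI 3. Gata4, a duodenal and jejunal regulator, had -3.19, -3.35 and -2.82 in iISC organoids, against -0.72, -0.96 and -1.01 in crypt organoids (-2.22 ± 0.59, adjusted p = 0.0698, not called). It had -6.36, -3.49 and -5.48 in iFIPC organoids, against -2.45, -1.29 and -1.45 in FI organoids. Slc10a2, Pyy and Gata4 were picked for these sentences after their values had been seen, and the 12 samples share 3 slides.

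**Figure D4:**
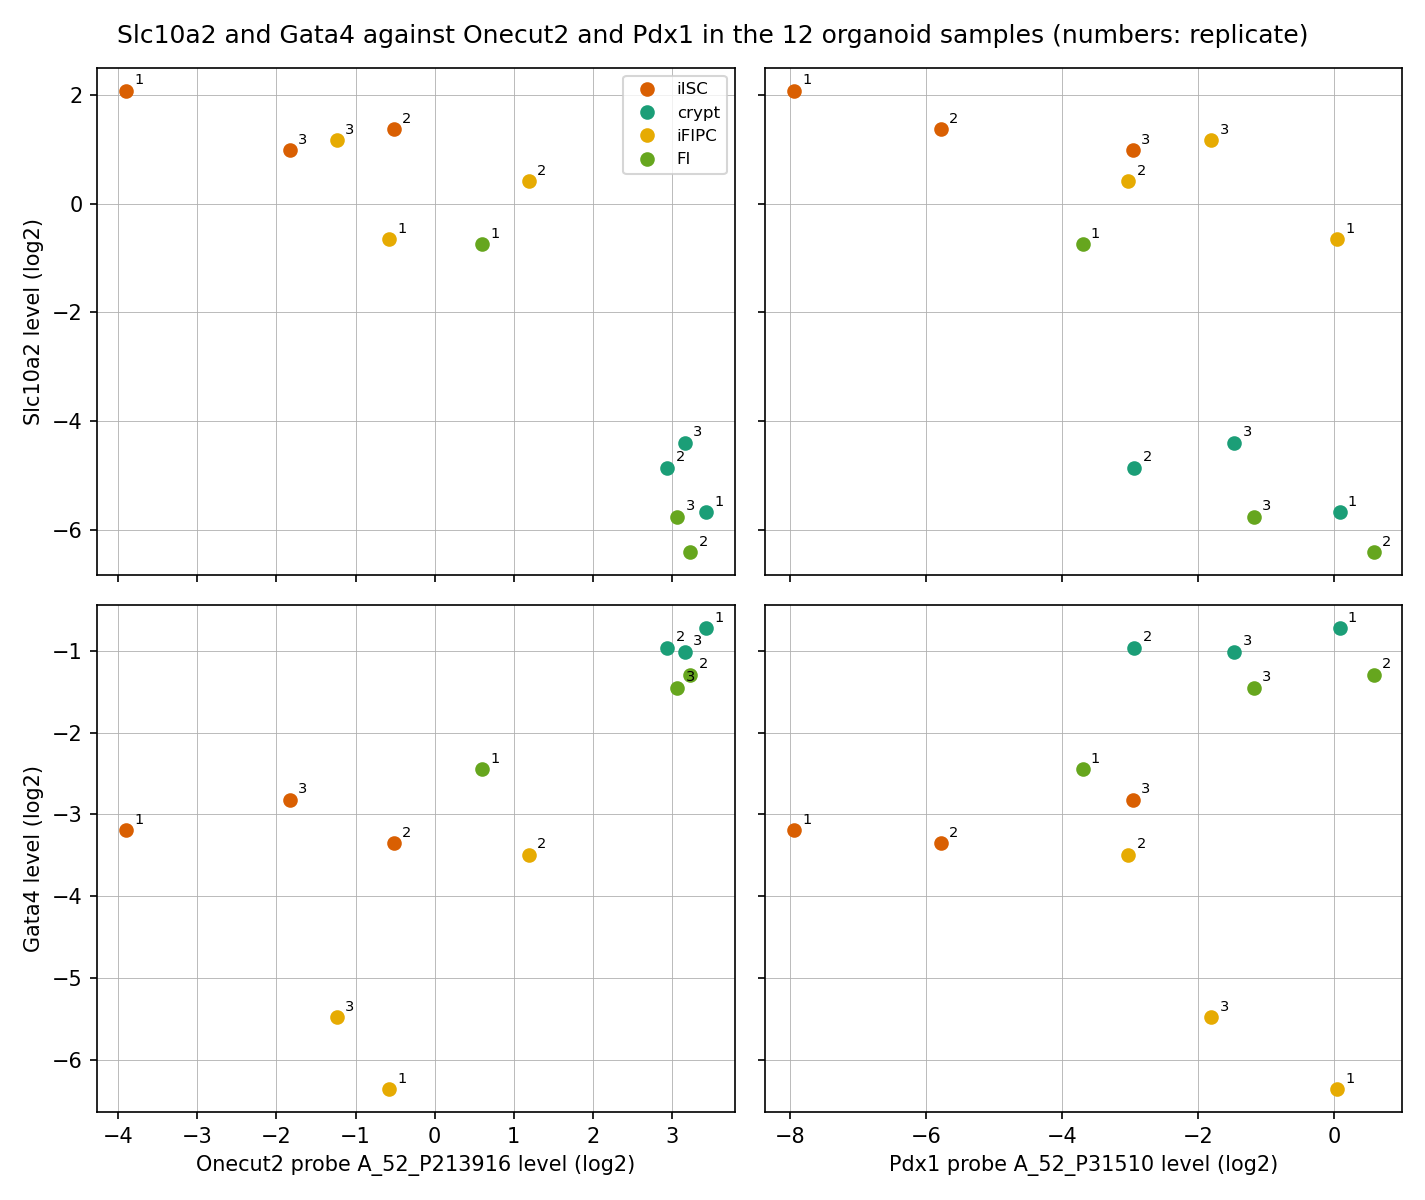
Levels (log2) of Slc10a2 and Gata4 (y axes) against Onecut2 A_52_P213916 and Pdx1 (x axes) in the 12 organoid samples, coloured by group and numbered by replicate. The crypt samples with FI 2 and FI 3 sit together at high Onecut2 (2.94 to 3.43) and low Slc10a2 (-6.41 to -4.40), with FI 1 beside the iFIPC samples, whereas their Pdx1 levels (-2.94 to 0.58) overlap those of the iFIPC samples.

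As a list, the distal genes gave 4 of 8 tested members called higher in iISC than in crypt organoids and none lower, with a median difference of 3.86, against -0.05 over all probes tested, of which 2.59% were called. These were Cubn (7.24 ± 0.98, adjusted p = 0.00593), which takes up vitamin B12 in the ileum, Slc10a2, Pyy (5.26 ± 1.15, 0.0373) and the hormone gene Nts (3.08 ± 0.69, 0.0387). In iFIPC against FI organoids, where 9.29% of all probes were called, 1 of 8 was called higher (Slc10a2) and 1 lower, the proglucagon gene Gcg (-3.79 ± 1.01, 0.0266). In crypt against FI organoids (7.32% of all probes called) none was higher, and Cubn (-6.60 ± 0.99, 0.00326) and Nts (-2.93 ± 0.69, 0.0226) were lower. Cubn was not well above background on crypt 3 and passed the filter through the iISC or FI arrays alone. The sizes of its differences from crypt organoids therefore depend on background signals.

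The proximal list did not move as a mirror image. Of 16 genes tested, 1 was called higher in iISC than in crypt organoids (2.59% of all probes called), the hormone gene Cck (1.67 ± 0.39, adjusted p = 0.0442), and none lower, with a median of 0.00. In iFIPC against FI organoids (9.29% of all probes called) none was higher and 6 were lower, with a median of -0.93, against -0.10 over all probes. The largest of these differences were those of the fatty acid binding protein gene Fabp1 (-5.41 ± 1.62, 0.0401), lactase (Lct, -4.65 ± 1.46, 0.0466), Gata4 (-3.38 ± 0.60, 0.00582) and the hormone gene Gip (-2.99 ± 0.83, 0.0311). In crypt against FI organoids (7.32% of all probes called), Cck (-1.91 ± 0.39, 0.0121) and the hormone gene Sct (-1.83 ± 0.40, 0.0167) were lower. In iISC against iFIPC organoids (6.62% of all probes called) Gip (3.29 ± 0.83, 0.0322) and Cck (1.51 ± 0.39, 0.0347) were higher and Cybrd1, the duodenal iron reductase, was lower (-4.34 ± 0.96, 0.0196).

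Among 20 other regulators of foregut and pancreatic endoderm, 18 were tested in each comparison between organoids that follows. This list also holds the intestinal homeobox genes Cdx1 and Cdx2, and Gata4 is in the proximal list too. Cdx2 is counted below among the lower genes in iFIPC against FI and the higher genes in iISC against iFIPC organoids. The shares of all probes called were 2.59% for iISC against crypt, 9.29% for iFIPC against FI, 7.32% for crypt against FI and 6.62% for iISC against iFIPC organoids. Against crypt organoids, iISC organoids had 2 lower and none higher. These were the pioneer factor Foxa1 (-3.53 ± 0.38, adjusted p = 0.00182), with -3.75, -3.88 and -3.36 in iISC organoids, against 0.00, -0.34 and -0.08 in crypt organoids, and Onecut3 (-1.97 ± 0.35, 0.0164). Onecut3 is counted here, and in iFIPC against FI organoids, by A_51_P331638, the probe with bases that match an Onecut2 probe. Against FI organoids, iFIPC organoids had 6 lower and none higher, the largest being Foxa1 (-3.83 ± 0.39, 0.000463), Gata4, the homeobox gene Mnx1 (-2.98 ± 0.35, 0.00106) and the intestinal homeobox gene Cdx2 (-2.08 ± 0.22, 0.000568). None was called in crypt against FI organoids. In iISC against iFIPC organoids 4 were higher, among them Mnx1 (1.78 ± 0.35, 0.0126) and Foxa2 (1.41 ± 0.25, 0.00817).

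Ptf1a, which acts with Pdx1 in the pancreas, was well above background on none of the 18 arrays. Of the 6 pancreas genes with a probe, Cel and Nkx6-1 were well above background on all 18 arrays and Ins2 on all organoid arrays except iISC 2 and iISC 3, while Ptf1a was so on none. The islet and acinar genes Ins1 and Cpa1 were well above background on iISC 1 alone among the organoid arrays (-6.38 and -4.40), the same sample in which Pdx1 was lowest. The summed pancreas signal lay between -2.58 and -1.76 in all organoids, on the log2 scale of the levels. On the MEF arrays, where Pdx1 was not well above background, it was -1.23 to -0.788.

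Of 17 genes described elsewhere as targets of Onecut factors or Pdx1, 15 had a probe. None of 12 tested was called in iISC against crypt organoids, a count near the 2.59% of all probes called there. In iFIPC against FI organoids (9.29% of all probes called) 3 were lower and 1 higher. Lower were the somatostatin gene Sst (-6.25 ± 1.06, adjusted p = 0.00492), Gip (-2.99 ± 0.83, 0.0311) and the glucose-6-phosphatase gene G6pc (-2.63 ± 0.75, 0.0332), and the transthyretin gene Ttr was higher (1.97 ± 0.53, 0.0269). In iISC against iFIPC organoids (6.62% of all probes called) 5 were higher and none lower, among them Sst (4.05 ± 1.06, 0.0363) and the glucose transporter gene Slc2a2 (3.32 ± 0.94, 0.0488). Sst was not well above background on iFIPC 1 and passed the filter in these comparisons through the FI or iISC arrays alone. The sizes of its differences from iFIPC organoids therefore depend on background signals.

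Markers of other tissues differed between the same groups. Stomach genes were bright in iFIPC organoids, where the summed signal of the 5 markers was 5.17 to 8.19, against -3.37 to -2.69 in FI organoids. All 3 tested were called higher, where 9.29% of all probes were called in either direction. Among them were Gkn2 (11.81 ± 1.36, adjusted p = 0.000967) and Tff1 (10.46 ± 0.93, 0.000187). Only 2 of the 5 markers were well above background on FI 1 and on FI 2. Not every tested gene thus passed the filter through FI organoids, and such sizes depend on background signals. Sox2, a regulator of stomach identity, was well above background on iFIPC 2 alone among the organoid arrays. The same sum was 6.72 to 8.71 in iHep cells, against -2.71 to -2.33 in MEFs. iISC organoids had -3.24 to -1.19, against -2.73 to -2.11 in crypt organoids. The summed signal of 6 fibroblast markers was -1.85 to 1.58 in iFIPC organoids, against -3.79 to 0.00294 in FI organoids, highest in iFIPC 2 and, among FI samples, in FI 1. In iISC organoids it was -3.73 to -3.39, against -4.08 to -3.60 in crypt organoids, and 1 of 6 markers was well above background on each of these arrays. The 8 enteroendocrine markers were well above background on every organoid array, with summed signals of 6.63 to 6.96 in iFIPC organoids, against 7.46 to 8.06 in FI organoids, and 7.35 to 7.84 in iISC organoids, against 6.62 to 8.02 in crypt organoids. The part of these markers in the differences of Onecut2 and Pdx1 was not tested.

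The genes most like each member were ranked by Pearson's r over the 17 samples among 12262 named genes. For Onecut2 (A_52_P213916) they were Onecut3 (0.900), the lipid transfer gene Stard5 (0.862), the kinase gene Taok3 (0.861), the sialyltransferase gene St3gal6 (0.861) and Dffa (0.854), an inhibitor of apoptotic DNA fragmentation. The Onecut1 probe A_51_P368894 had the same 5 genes. Onecut3 stands here for its probe A_51_P331638, which has bases that match an Onecut2 probe. The other Onecut3 probe had an r of 0.158 with Onecut2. Pdx1 shared none of them and had the paraoxonase gene Pon2 (0.879), the nucleoporin gene Nupl1 (0.830), the hedgehog receptor gene Ptch1 (0.810), Ppp1r9a (0.804) and Napepld (0.80). Stard5 followed Onecut2 mainly between groups, with an r of 0.33 for deviations from the group means, whereas St3gal6 followed it within groups too (0.85): its level was 3.01 in iHep 3, against -0.11 and -0.52 in iHep 1 and iHep 2. Spearman's rho ran from 0.88 to 0.90 for the 5 genes of Onecut2 and from 0.53 to 0.80 for those of Pdx1.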

How the data were processed

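The authors ran Agilent Feature Extraction on each scan (9.5.1.1 for MEF and iHep arrays, 10.7.1.1 for organoid arrays, per the file headers; 9.5.1.1 per the submitters' processing notes), and the deposited processed signal is a background-subtracted intensity with no scaling between arrays. The deposited spot means and background medians are intensity values too, and the deposited flags are 0 or 1. The authors' value table held an intensity per probe close to a quantile normalisation of these signals (r = 0.99999) and served as an alternative.

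Spots with outlier flags were left out (62 to 107 per array), 65 probes without a value on some array were dropped, and limma 3.58.1 (R 4.3.3, statmod 1.5.0) was fitted per probe: over 17 samples for comparisons with MEF or iHep, over the 12 organoid samples otherwise. The fit was tested on simulated data with independent normal errors and no slide differences, which cannot show how it performs where slides differ. Precision is limited by the number of arrays, since an exact permutation test of 3 samples against 3 has 0.1 as its smallest p. Per list gene the brightest probe stood for the gene, and up to 4 called genes with the largest difference were named. The genes reported on, the lists and the averaging of MEF arrays were chosen with earlier results of these data known. Tried as alternatives were other scalings, background, filter, samples and slide terms, a replicate block, 1 probe per gene and leaving out each sample.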

Additional observations from a re-analysis of the deposited data

Results flagged for a closer look

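The interaction between induced or native origin and adult or fetal type was called in limma for 11 genes of the lists, named here because they were called. Of all probes 4.57% were called, and 69 in place of 1211 with slide as a term, 411 without crypt 2 and 403 without crypt 3. By list the calls were 1 of 16 proximal genes tested, 2 of 8 distal, 3 of 18 regulators and 1 of 12 described targets. Among markers they were 1 of 6 epithelial, 2 of 8 enteroendocrine, 2 of 3 stomach and 1 of 3 fibroblast genes. Some genes are in more than 1 list, and the other lists had none. Cck was higher in iISC than in crypt organoids (1.67) and lower in iFIPC than in FI organoids (-1.75), an interaction of 3.42 (adjusted p = 0.0123). Cubn had 7.24 and 1.37 in these comparisons (interaction 5.87, 0.0394), and Nts 3.08 and -1.44 (4.53, 0.0303). Cdx2 had 0.15 and -2.08 (2.23, 0.0071), Mnx1 -0.92 and -2.98 (2.06, 0.0417), and Foxa2 0.77 and -0.76 (1.53, 0.0384). Of the enteroendocrine markers, Pax6 had 1.21 and -1.99 (3.21, 0.0123) and Neurod1 0.70 and -1.03 (1.73, 0.0312). The interaction was negative for the stomach genes Gkn2 (-12.57, 0.0107) and Tff1 (-10.53, 0.0052) and for the fibroblast gene Dcn (-5.81, 0.00453). Gkn2 and Dcn were well above background on no iISC array, and Cubn was not on crypt 3, so the sizes for these genes depend on background signals. None of the Onecut1, Onecut2 or Pdx1 probes was among the calls. Groups of 3 arrays were too small to be searched for outlying samples.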

How the results depend on the processing

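Limits: each group has 3 arrays, MEFs count as 2 samples, slides and groups are largely confounded, and Pdx1 rests on 1 probe near background in iISC and MEF samples. The number of member probes called changed as follows. Under normexp it was 0 in place of 1 for iHep against MEF, 0 in place of 5 for iFIPC against MEF, 0 in place of 1 for iISC against iHep, and 2 in place of 1 for iFIPC against FI. With no filter it was 4 in place of 5 for iFIPC against MEF. With 1 probe per gene, where fewer are tested, it was 3 in place of 5 against MEF for crypt, FI and iFIPC, 2 in place of 4 for iISC against crypt and 0 in place of 1 for iFIPC against FI. With 18 separate arrays, with or without the replicate block, it was 2 in place of 1 for iHep against MEF. Under quantile normalisation and with the authors' values it was 1 in place of 0 for iISC against MEF. With slide as a term it was 0 in place of 4 for iISC against crypt and 0 in place of 1 for iFIPC against FI, where no filter, the fit over all 17 samples and slide as a random block also gave 0. Leaving out 1 sample gave 1 to 3 probes for iHep against MEF (3 without iHep 2), 1 to 5 for iFIPC against MEF, 0 to 1 for iISC against iHep, 0 to 4 for iFIPC against iHep, 0 to 4 for iISC against crypt and 0 to 4 for iFIPC against FI. In crypt and FI organoids against MEF 5 probes were called under every alternative other than 1 probe per gene. Where an arm keeps 1 sample, it is assumed to vary like the other groups.

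No difference that changed sign was called. Onecut2 A_52_P1164839 in iISC against iHep was 0.21 under quantile normalisation and with the authors' values, against -0.20. Pdx1 in crypt against FI was 0.05 under both, 0.03 with slide as a random block and 1.52 with slide as a term or within slide 3, and in iFIPC against FI it was 2.85 with slide as a term. Leaving out 1 sample gave, in iISC against iHep, -1.76 to 1.14 (Onecut2 A_51_P345274), -1.36 to 1.58 (A_52_P1164839), -1.80 to 0.93 (A_52_P213916) and -2.04 to 0.63 (Onecut1 A_51_P368894). In iFIPC against iHep it gave -0.19 to 2.48 for that Onecut1 probe and -0.68 to 0.87 for Pdx1. Pdx1 ran from -1.29 to 0.85 in iFIPC against FI and from -1.14 to 1.00 in crypt against FI, and Onecut2 A_52_P1164839 from -0.21 to 1.23 in crypt against FI. The causes of these changes were not tested.

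Deviations from the group means had an r of -0.309 to 0.263 between same-numbered organoid replicates of different groups (18 pairs, 3 over 0.1). Between replicates with different numbers it was -0.423 to 0.39 (36 pairs, 9 over 0.1). With 3 samples per group these values cannot settle whether the numbers pair the samples, and the labels do not say. With the replicate block 794 in place of 1211 probes were called over the whole array in the interaction, and the Onecut2 A_52_P213916 call in iISC against crypt held (adjusted p = 0.0168). Over the whole array, slide as a term gave 40 in place of 636 calls for iISC against crypt, 154 in place of 2433 for iFIPC against FI, 449 in place of 1900 for crypt against FI and 418 in place of 1620 for iISC against iFIPC. Normexp gave 407, 1456, 1126 and 1088 for these. Without a filter 639 were called in the interaction. Leaving out 1 sample gave 224 to 1520 for iISC against crypt, 1370 to 2340 for iFIPC against FI, 1060 to 2748 for crypt against FI and 403 to 2592 for the interaction. With 1 probe per gene 4654 in place of 7016 were called for iHep against MEF.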
